A study of Mus musculus with 12 samples.

Results

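The leukaemia inhibitory factor (LIF) pathway was examined in mouse embryonic stem cells through 8 genes. They were the ligand gene Lif, the receptor genes Lifr and Il6st, the kinase gene Jak1, the transcription factor gene Stat3, and Socs3, Pim1 and Gbx2, which STAT3 is known to switch on. For each gene, every open-chromatin peak that overlapped its annotated GRCm38 span or the 20 kb on either side was taken from the peak lists of 12 libraries. Overlapping peaks were merged over the libraries, which gave 50 regions for the 8 genes out of 97889 regions on the mouse chromosomes. The rule for the regions uses gene names and no measured value, although the genes were chosen with earlier results of these data known.

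The cells were a BL6xCAST line (a cross of the C57BL/6 and CAST mouse strains) and carried either synHPRT1 or synHPRT1R integrated on chromosome X. Each genotype had 2 clones with 3 replicates per clone, so 6 libraries stood against 6. Every library came from cells with one of these constructs, so the comparison is between constructs and not with unmodified cells. All cells grew on gelatin in a mixed medium of 80% 2i medium and 20% serum-containing stem cell medium, and both parts held LIF. The 2i part also held CHIR99021, a GSK3 inhibitor, and PD0325901, a MEK inhibitor. The assay was ATAC-seq, where the transposase Tn5 cuts accessible DNA and leaves sequencing adapters there. Whether the replicates of a clone were separate cultures is not stated in the labels. The p-values therefore measure only the spread between libraries, and that spread may be technical.

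LIF binds LIFR, which then pairs with gp130, the signalling chain encoded by Il6st. The JAK kinases attached to both chains phosphorylate STAT3, which enters the nucleus and binds DNA at sites with the palindromic core TTCNNNGAA. In mouse embryonic stem cells this signal is known to sustain self-renewal, and SOCS3 closes the loop by inhibiting the receptor complex. A peak shows that DNA was accessible to Tn5, not how much the gene was transcribed.

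The lists held 38403 to 63704 peaks, and a site absent from a short list may have been below detection there. The strength of a peak is given as its in-list rank, the percentage of peaks in that library's own list with a lower fold. The fold is the authors' deposited value for the peak, and the ranks describe the lists and were not tested. Marker genes were checked for a listed peak no farther than 1 kb from a start or an end of the gene. Of 8 stem cell markers, 7 met this in all 12 libraries, and Pou5f1 in 7. None of 6 fibroblast or feeder markers was listed in all 12, although Col1a1 and Twist2 were listed in 11, and Col3a1 was listed in none. The blood markers Ptprc and Cd3e were listed in no library, as were the liver markers Alb and Ttr. Apoa1, the remaining liver marker, was listed in 11, and among the trophoblast markers Cdx2 was listed in 12, Elf5 in 9 and Tfap2c in 6.

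The starts of Lif, Pim1 and Jak1 show the range of states in the 8 loci, and their upstream sequences are printed with the CpG dinucleotides in capitals (RefSeq, GRCm38.p6, 5′ to 3′ on the gene's strand). Lif had no peak within 1 kb of its start, and the bases before that start (chr11:4257318-4257567, plus strand) hold 6 CpGs. Pim1 had a peak in every library, at ranks from 15.8 to 62.2, beside a start preceded by 36 CpGs (chr17:29490535-29490784, plus strand). Jak1 had one of the highest-ranked peaks, and only the bases outside its annotated span are printed (chr4:101265283-101265473, minus strand). These 191 bases hold 10 CpGs, and the whole 250 bases before the Jak1 start hold 19.
Lif: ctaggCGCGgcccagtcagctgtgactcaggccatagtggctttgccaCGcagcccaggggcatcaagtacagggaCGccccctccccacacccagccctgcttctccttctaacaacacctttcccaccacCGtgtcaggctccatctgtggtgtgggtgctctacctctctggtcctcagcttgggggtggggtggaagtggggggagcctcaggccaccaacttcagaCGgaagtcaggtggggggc
Pim1: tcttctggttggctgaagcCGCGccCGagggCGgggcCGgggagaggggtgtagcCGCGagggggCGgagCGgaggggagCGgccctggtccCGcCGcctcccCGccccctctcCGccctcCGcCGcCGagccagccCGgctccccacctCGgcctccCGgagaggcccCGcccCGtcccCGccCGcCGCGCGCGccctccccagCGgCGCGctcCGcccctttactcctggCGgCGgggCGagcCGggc
Jak1: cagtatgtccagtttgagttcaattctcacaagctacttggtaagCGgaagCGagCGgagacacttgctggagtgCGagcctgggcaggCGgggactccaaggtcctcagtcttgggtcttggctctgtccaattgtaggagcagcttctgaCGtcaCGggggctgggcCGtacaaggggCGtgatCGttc

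The sequence before the Stat3 start is printed because the peak summit fell on the same base in nearly every library (chr11:100939595-100939790, minus strand, the bases from −250 to −55 before the start). The capitals mark the commonest summit base, at −192, and 10 bases on each side. Socs3 was the member with a match to TTCNNNGAA before its start, and the match is in capitals with 10 bases on each side (chr11:117969502-117969530, minus strand). These bases lie inside the annotated Socs3 span, which reaches 970 bases before that start.
Stat3: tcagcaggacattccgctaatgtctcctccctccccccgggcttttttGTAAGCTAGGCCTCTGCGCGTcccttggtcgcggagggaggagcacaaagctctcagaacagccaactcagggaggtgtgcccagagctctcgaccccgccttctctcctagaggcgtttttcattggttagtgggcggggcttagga
Socs3: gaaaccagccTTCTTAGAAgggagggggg

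Of the 50 regions, 13 were listed in all 12 libraries, 21 in 2 to 11 and 16 in a single library. Over all regions of the genome, 23.8% were listed in all 12 libraries, against 26.0% of the regions of the 8 loci, and 27.1% were listed in 1 library, against 32.0% here. Of the 13 regions listed everywhere, 7 lay over an annotated start. Those 7 were among 8 regions over a start, compared with 4 of 17 upstream of the genes, 1 of 12 inside them and 1 of 13 downstream. Shares by place were not counted over the genome, so this pattern is not shown to be particular to the 8 loci. The median merged width was 1216 bases over starts, 394 inside genes, 554 upstream and 425 downstream. Merged width grows with the number of libraries that list a region. Among regions listed in all 12 libraries, widths ran from 927 to 1586 bases over starts and from 666 to 2232 elsewhere.

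**Figure D1:**
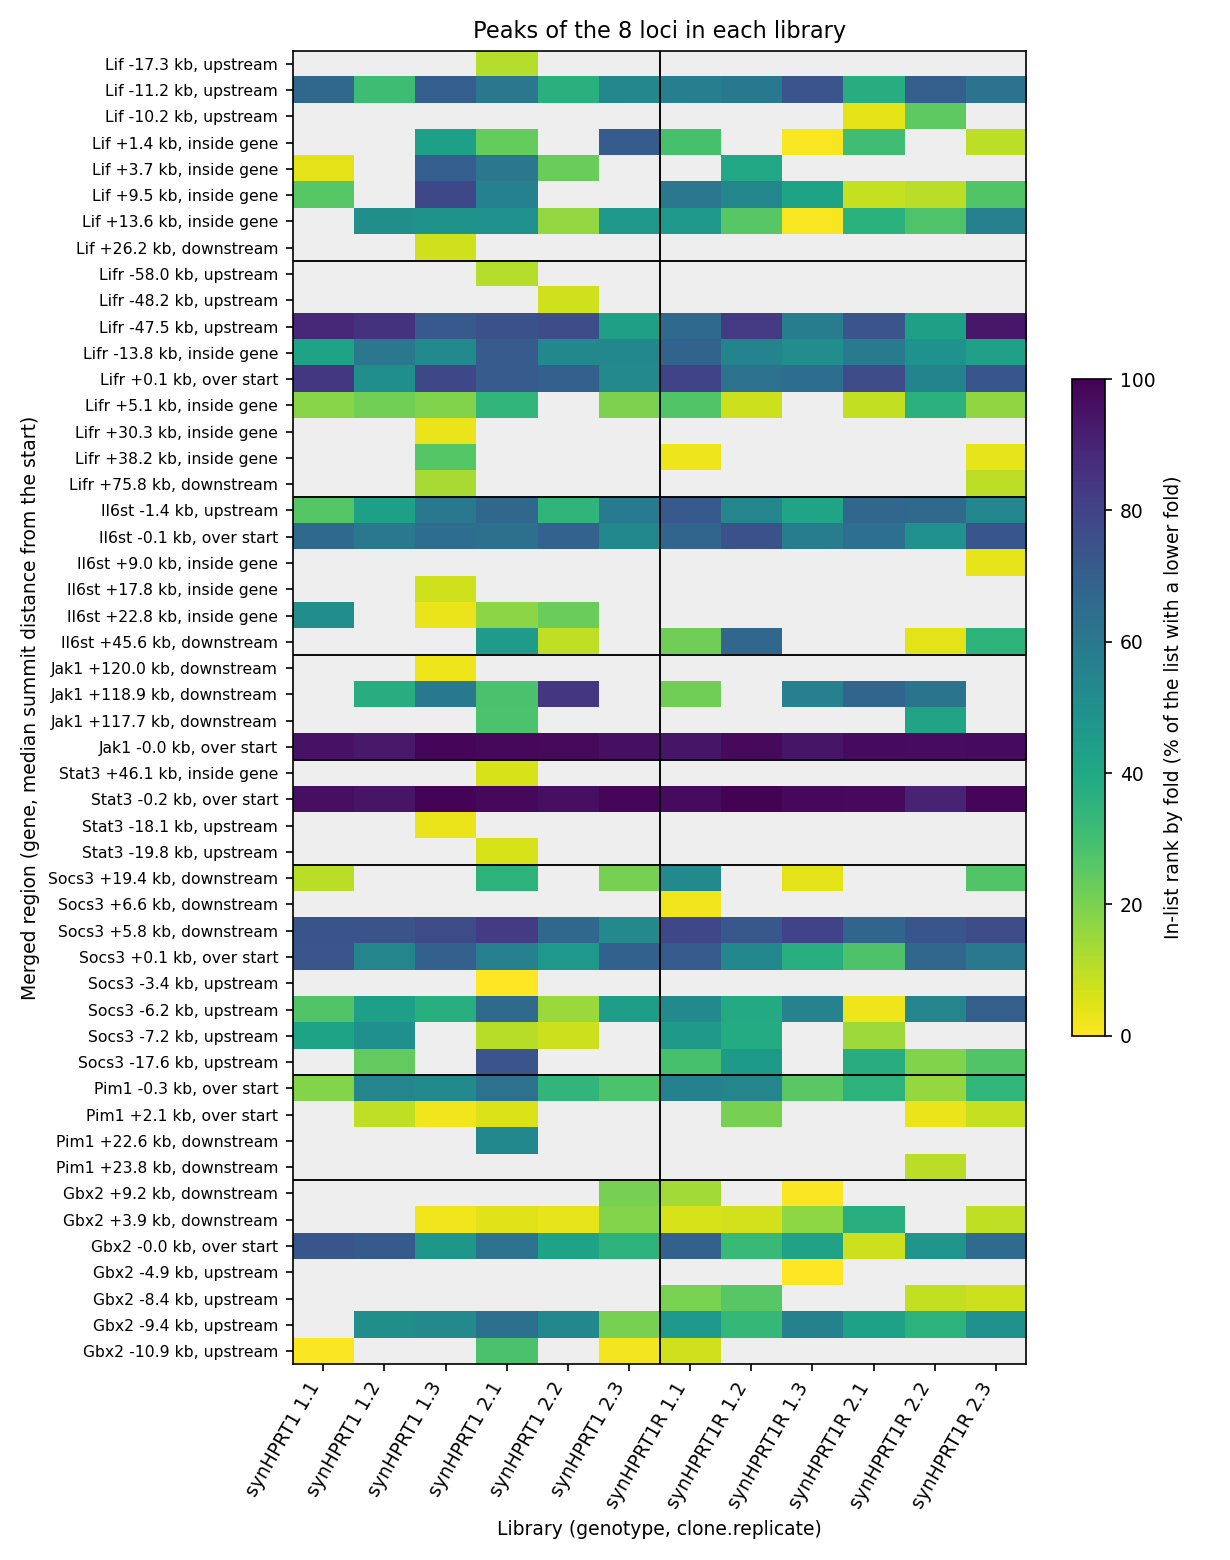
Each row is 1 of the 50 merged regions, labelled with its gene, the distance of its median summit from the gene's first start in kb and its place, and each column is 1 of the 12 libraries (genotype, clone.replicate). Colour gives the in-list rank by fold in percent, and grey marks no listed peak. The rows of the Jak1 and Stat3 starts are dark in every column, and 13 rows have a peak in all 12.

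Of the 16 single-library regions, 11 came from the 2 longest lists. These were 6 from synHPRT1 clone 2 replicate 1 and 5 from synHPRT1 clone 1 replicate 3, whose lists held 63704 and 63563 peaks. The same share was not counted over the single-library regions of the genome, so it is not shown to be particular to the 8 loci. With these 2 libraries left out, a step chosen after the values were seen, the 8 loci held 39 regions, of which 13 were in all 10 remaining libraries and 7 in a single one. The corresponding shares were 33.3% and 17.9% in the 8 loci, and 26.5% and 27.7% of the 87994 regions of the genome.

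Lif, the ligand gene (chr11:4257568-4272514, plus strand), had no peak within 1 kb of its start in any of the 12 libraries. The nearest region lay inside the gene, with a median summit at +1399, and was listed in 3 synHPRT1 and 4 synHPRT1R libraries at ranks from 0.970 to 71.0. The only Lif region listed in every library was upstream, at chr11:4245673-4246714, between Osm, the gene of the related cytokine oncostatin M, and Lif. Its summits lay from −11300 to −11057 relative to the Lif start, and the end of Osm was 4647 bases away. The rank of this upstream region was 31.1, 57.1 and 70.0 (lowest, median and highest) in synHPRT1 and 37.6, 60.8 and 73.8 in synHPRT1R, and the genotypes overlapped. Inside Lif, 4 regions were listed in 5 to 11 libraries, and the most frequent of them, at chr11:4270916-4271715, was absent from synHPRT1 clone 1 replicate 1 alone.

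Lifr encodes the ligand-binding receptor chain and has 2 starts in the RefSeq promoter table. The first, at position 7129572 of chromosome 15, lay under the region chr15:7128664-7130092, which was listed in all 12 libraries. Its rank was 50.2, 70.4 and 83.8 (lowest, median and highest) in synHPRT1 and 54.8, 68.5 and 79.9 in synHPRT1R, with overlapping ranges. The second start, at 7140542, had no peak within 1 kb in any library. It is preceded by 3 CpGs in 250 bases, whereas the first is preceded by 43.

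Lifr also had 2 other regions in every library, which gave it 3 in all. The region with its highest median rank by fold was not over a start but at chr15:7081737-7082402, outside the annotated gene and at −47537 from the first start. The annotated Lifr span begins at position 7090610, between this region and that start, so the region lies nearer to the span than to the start. The rank of the region was 43.3, 75.6 and 88.7 in synHPRT1 and 43.2, 69.5 and 93.7 in synHPRT1R. Ranked by the deposited −log10 p instead, the order turned, with a median of 76.7 for the start region and 70.8 for this one. The other lay inside the gene upstream of that start, at chr15:7114997-7117228, and was the widest of the 50 regions at 2232 bases. Its median rank was 53.4 (range 41.8 to 71.3), and its summits were spread over 1269 bases, against 201 bases for the region at −47537.

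Il6st encodes gp130, the chain shared by the receptors of the interleukin-6 family. Its start region, chr13:112463553-112464479, was listed in all 12 libraries at ranks of 53.5, 63.5 and 68.5 in synHPRT1 and 49.6, 65.4 and 75.2 in synHPRT1R. A second region in all 12 libraries lay just upstream at chr13:112462139-112463001, with a median summit at −1400 and a median rank of 56.9. The genotypes overlapped at both regions. Further into the gene, chr13:112486559-112486967 was listed in 4 synHPRT1 libraries and in no synHPRT1R library (two-sided Fisher's exact p = 0.0606, adjusted p = 1). Its ranks were low to middling, at 50.7, 2.75, 17.4 and 23.0, and came from both synHPRT1 clones.

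Jak1 encodes the kinase attached to the receptor chains (chr4:101151974-101265282, minus strand). Its start region, chr4:101264352-101265540, ranked 93.2, 96.7 and 98.2 in synHPRT1 and 94.3, 96.8 and 97.3 in synHPRT1R. The median deposited fold was 10.5, and no library ranked this peak under 93.2. The annotated gene and its flanks span 153 kb, yet only 3 other regions were found there, all downstream and inside the span of the neighbouring gene Raver2. The most frequent of these was listed in 8 libraries, and none lay inside Jak1 away from its start.

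Stat3 encodes the transcription factor at the centre of the pathway (chr11:100886806-100939594, minus strand). Its start region, chr11:100938972-100940213, had the highest median rank by fold of the 50 regions, at 97.5. Ranked by −log10 p, its median of 94.5 was below the 96.4 of the Jak1 start region. The rank was 94.9, 96.9 and 99.2 in synHPRT1 and 90.5, 97.5 and 99.6 in synHPRT1R. The genotypes overlapped, and the lowest value, 90.5, was that of synHPRT1R clone 2 replicate 2. This region also overlaps the annotated span of Gm46295, a neighbouring gene, so the peak cannot be assigned to one of these genes.

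The position of the Stat3 summit hardly varied. It fell at −192 in 10 of the 12 libraries, at −191 in synHPRT1 clone 2 replicate 3 and at −124 in synHPRT1 clone 1 replicate 1. In no other start region did more than 2 libraries share a summit base, and the summits of the Jak1 start region were spread over 308 bases. The sources used here do not give how reads were shifted or extended before peak calling, which sets where a summit falls. The Stat3 window held 3 other regions, and each was listed in a single library.

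**Figure D2:**
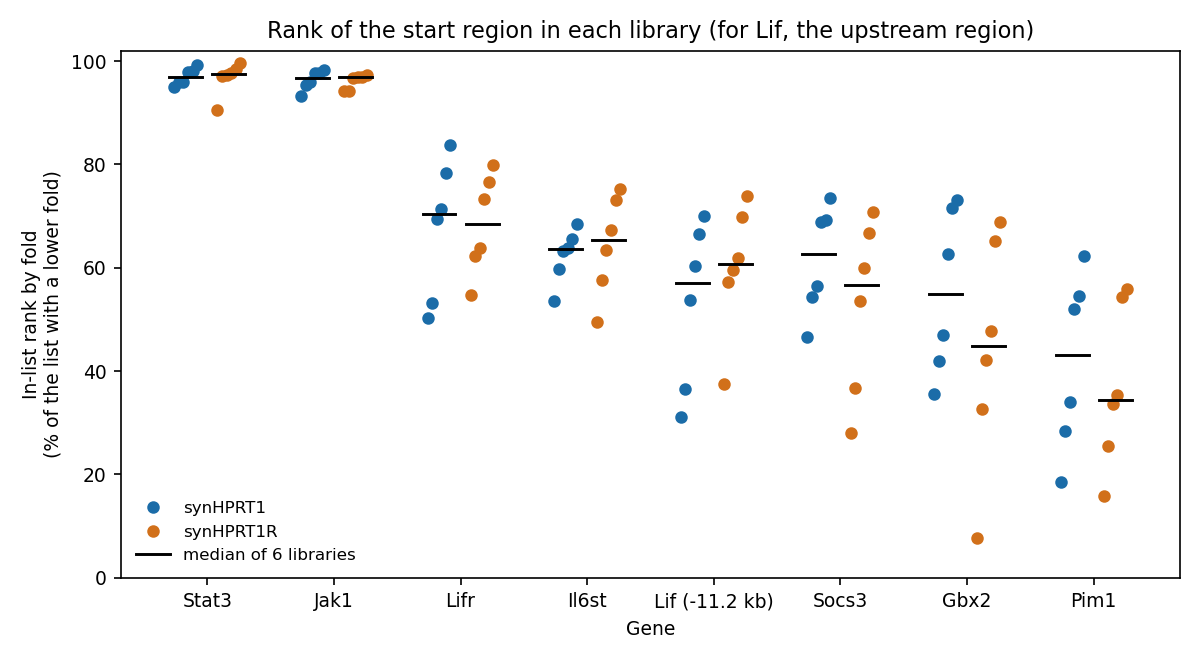
Each point is 1 library's in-list rank by fold, in percent, for the region over a gene's start, or for the upstream region in the case of Lif. Points are coloured by genotype, 6 libraries each, and black lines are medians. Stat3 and Jak1 lie above 90 in every library, and the 2 genotypes overlap at every gene.

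Socs3 encodes the feedback inhibitor of the receptor complex and is a classic STAT3 target. Its locus held 8 regions in 44.3 kb, or 18.1 per 100 kb, against 16.2 at Gbx2, 14.6 at Lif and down to 2.61 at Jak1. This density was not compared with that of other genes. The region at chr11:117986457-117987300 overlaps the annotated span of the neighbouring gene Pgs1. Of the 8 Socs3 regions, 3 were listed in all 12 libraries and 2 in a single one. The highest-ranked was not at the start but downstream, at chr11:117962890-117963934, with a median summit at +5802. Its rank was 52.9, 74.3 and 82.3 in synHPRT1 and 67.5, 75.3 and 79.7 in synHPRT1R. The start region, chr11:117968962-117970115, ranked 46.6, 62.7 and 73.5 in synHPRT1 and 28.1, 56.8 and 70.8 in synHPRT1R. Another region in every library lay upstream at chr11:117974933-117976024, where the rank went from 2.64 to 69.8 and the median summit was at −6245. At each of these regions the genotypes overlapped.

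Pim1 encodes a serine/threonine kinase and is also a STAT3 target. Of the 7 start regions listed in every library, that of Pim1, chr17:29490075-29491456, had the lowest median rank, at 34.7. The rank was 18.6, 43.1 and 62.2 in synHPRT1 and 15.8, 34.4 and 55.9 in synHPRT1R. The peaks lay mainly before the start, with summits from −482 to −244, and a peak covered the start base itself in 4 libraries. The second Pim1 start, at position 29493085 of chromosome 17, had a peak within 1 kb in 3 libraries of each genotype, at ranks of at most 20.5. The first Pim1 region overlaps the annotated span of Gm26885.

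Gbx2 encodes a homeobox transcription factor and is a STAT3 target in embryonic stem cells. Its start region, chr1:89930140-89931725, was listed in all 12 libraries with the widest range of ranks among the start regions. In synHPRT1 it ranked 35.5, 54.8 and 73.2 and in synHPRT1R 7.69, 45.0 and 68.8, again with overlap. Upstream of Gbx2, a region at chr1:89940147-89940672 was listed in 11 libraries at a median rank of 49.3, close to the 47.3 of the start region. Beside it, chr1:89939364-89939917 was listed in 4 synHPRT1R libraries and in no synHPRT1 library (Fisher's exact p = 0.0606, adjusted p = 1). These peaks ranked 20.2, 26.1, 9.32 and 7.43 and came from both synHPRT1R clones. The regions named here besides each gene's start region and its highest-ranked region were singled out after their values were seen.

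**Figure D3:**
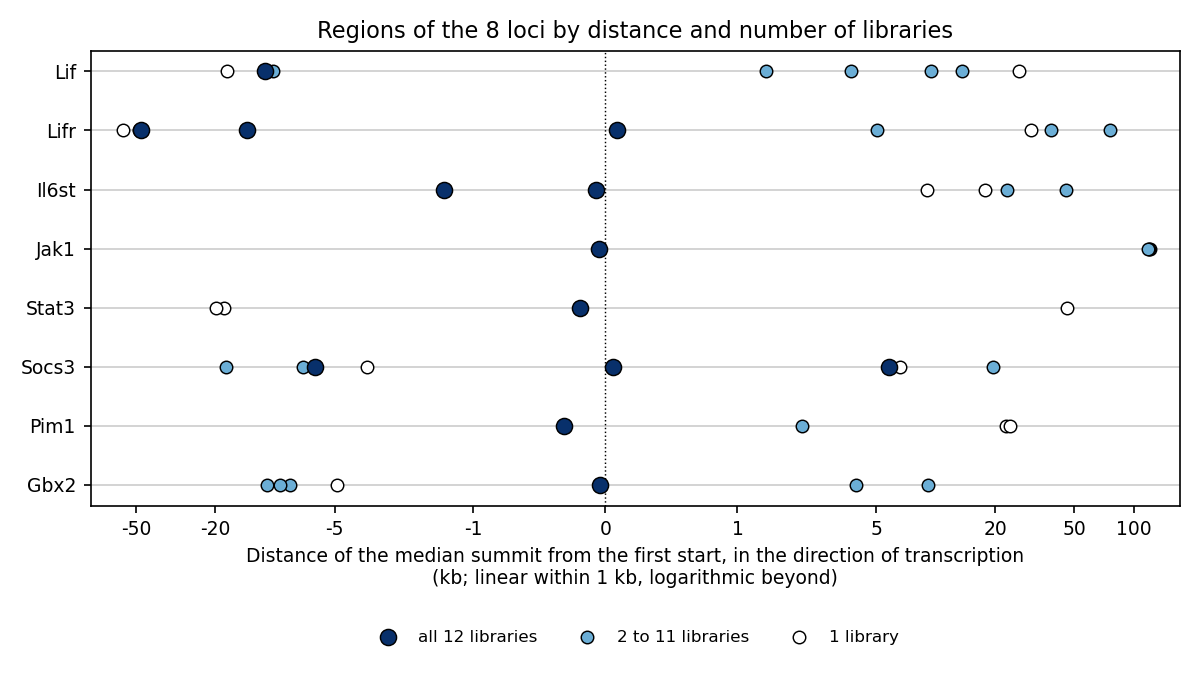
Each point is 1 merged region, placed by the distance of its median summit from the gene's first start in kb (linear within 1 kb and logarithmic beyond, negative upstream). Dark points are regions listed in all 12 libraries, light points those in 2 to 11 and open points those in 1, and close points overlap. Every gene but Lif has a dark point near 0.

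When the strongest peak of each locus was ranked in each library, the order of medians was Stat3 (97.5), Jak1 (96.8), Lifr (77.5), Socs3 (74.3), Il6st (65.8), Lif (61.2), Gbx2 (54.6) and Pim1 (34.7). The ranges of neighbours in this order overlapped throughout. The order depends both on the regions compared and on the column used for ranking. The start regions, with the upstream region for Lif, were therefore ordered by each column. By fold, their order was Stat3 (97.5), Jak1 (96.8), Lifr (70.4), Il6st (63.7), Lif, Socs3 (58.2), Gbx2 (47.3) and Pim1 (34.7). By −log10 p, the order of the same regions was Jak1 (96.4), Stat3 (94.5), Il6st (79.3), Lifr (76.7), Socs3 (66.3), Gbx2, Lif (55.6) and Pim1 (44.1). The following counts use the strongest peak of each locus, ranked by fold. Jak1 was above Lifr in 12 of 12 libraries, Gbx2 above Pim1 in 11, Stat3 above Jak1 in 10 and Lif above Gbx2 in only 5. Against the strongest peak of all protein-coding genes, the median of Stat3 stood at the 95.3rd percentile, that of Jak1 at the 93.6th and that of Lifr at the 52.8th. The other members stood from the 48.3rd (Socs3) down to the 22.0th percentile (Pim1).

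The number of peaks per window is given beside these ranks, and the relation between them was not tested. Stat3 averaged 1.25 and Jak1 1.92 peaks per library, at the 27.5th and 38.0th percentiles of all protein-coding genes. Lifr and Socs3 averaged 5.00 peaks each, at the 85.1st percentile. Pim1, with the lowest rank, averaged 1.83 peaks, and Il6st, Gbx2 and Lif averaged 3.00, 3.92 and 4.00. The median over the 8 members was 3.46 peaks per window. Over all 21883 protein-coding genes, including those with no peak in the window, it was 2.42.

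A gene start was counted as listed when a peak lay within 1 kb of it. All 8 members have a tabulated start, as do 17491 of the 21883 protein-coding genes. For the remaining genes, either gene end was used instead. This held in all 12 libraries for 7 of the 8 members and for 49.6% of 21883 protein-coding genes. With peaks limited to a deposited −log10 q of at least 5, it held for 5 members and 39.9% of genes, as Gbx2 then had a peak in 11 libraries and Pim1 in 10.

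The CpG content before the starts varied widely among the members. This comparison was added after the values were seen. Over 21262 protein-coding starts, a peak in all 12 libraries was found at 4.00% of those with 0 to 2 CpGs in the 250 bases before them, 21.1% with 3 to 6, 59.5% with 7 to 12, 77.5% with 13 to 20, 82.8% with 21 to 30 and 82.0% with 31 to 56. The 3 member starts that were not listed in all 12 libraries had 3 CpGs (the second Lifr start), 4 (the second Pim1 start) and 6 (Lif). The 7 that were listed in all 12 had from 13 (Stat3) to 43 (the first Lifr start). CpG number did not give the order of ranks, since the first Pim1 start, with 36 CpGs, ranked lowest of the 7 and Stat3, with 13, ranked highest.

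**Figure D4:**
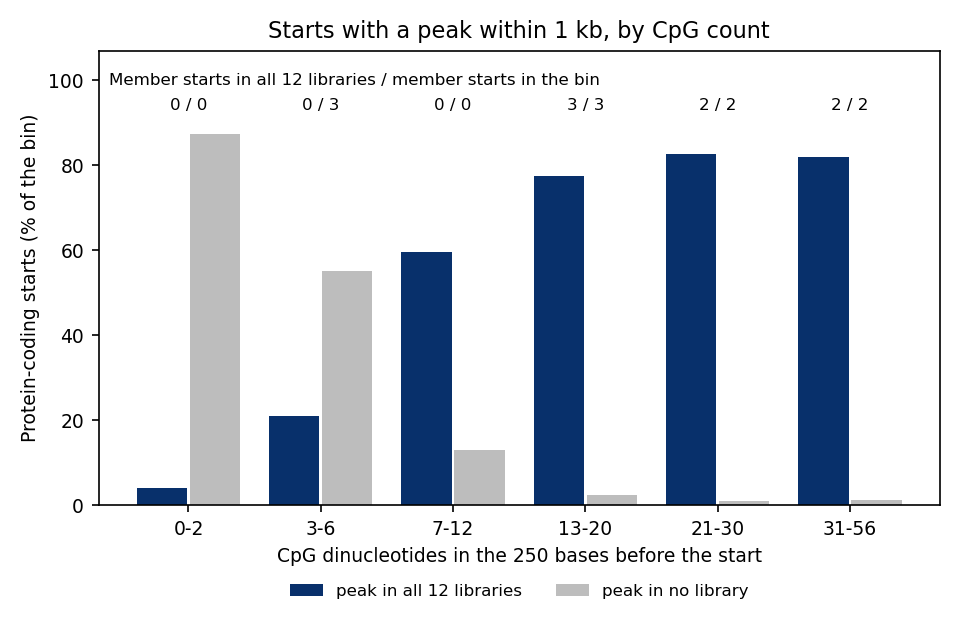
Bars give, for protein-coding starts grouped by the number of CpGs in the 250 bases before the start, the percentage with a peak within 1 kb in all 12 libraries (dark) and in none (grey). Numbers above each pair count the starts of the 8 genes listed in all 12 out of those in the group. The 3 member starts with 3 to 6 CpGs are all outside the listed set, and the 7 with more are all inside it.

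The STAT core TTCNNNGAA, searched on both strands, was found in the 250 bases before 1 of the 10 member starts and before 6.58% of the 21262 protein-coding starts. The match lay before the Socs3 start, at −154, though inside the annotated Socs3 span, and read TTCTTAGAA. The narrower palindrome TTCCNGGAA, which is contained in the first pattern, was found before none of the 10 and before 0.950% of all starts. A match is a stretch of letters and not a measured binding site, and the regions away from starts were not searched.

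Between the genotypes, the number of regions of the 8 loci with a peak did not differ beyond the spread. In synHPRT1 the libraries had 20, 20 and 30 regions in clone 1 and 35, 22 and 21 in clone 2. In synHPRT1R the values were 29, 24 and 22 (clone 1) and 23, 25 and 27 (clone 2). This gave means of 24.7 ± 6.31 and 25.0 ± 2.61 (SD, n = 6 each), a difference of −0.333 (two-sided exact permutation test, p = 0.955). The peaks covered 14359 ± 3994 and 14442 ± 2463 bases (SD, n = 6 each; exact permutation p = 0.970). With the clone means as units the smallest p that 2 against 2 allows is 0.333.

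The number of regions followed the length of the list over the 12 libraries, with r = 0.806 by Pearson (permutation p = 0.00200, adjusted p = 0.00800) and rho = 0.544 by Spearman (permutation p = 0.0711, adjusted p = 0.144). Without the 2 longest lists, which are also the farthest from the median length, r fell to 0.527 (permutation p = 0.119, adjusted p = 0.139) and was no longer past the threshold. Within synHPRT1 r was 0.889 (exact permutation p = 0.0361, adjusted p = 0.0722, n = 6) and within synHPRT1R 0.675 (exact permutation p = 0.139, adjusted p = 0.139, n = 6). The adjustment is that of Benjamini-Hochberg over these 4 relations.

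**Figure D5:**
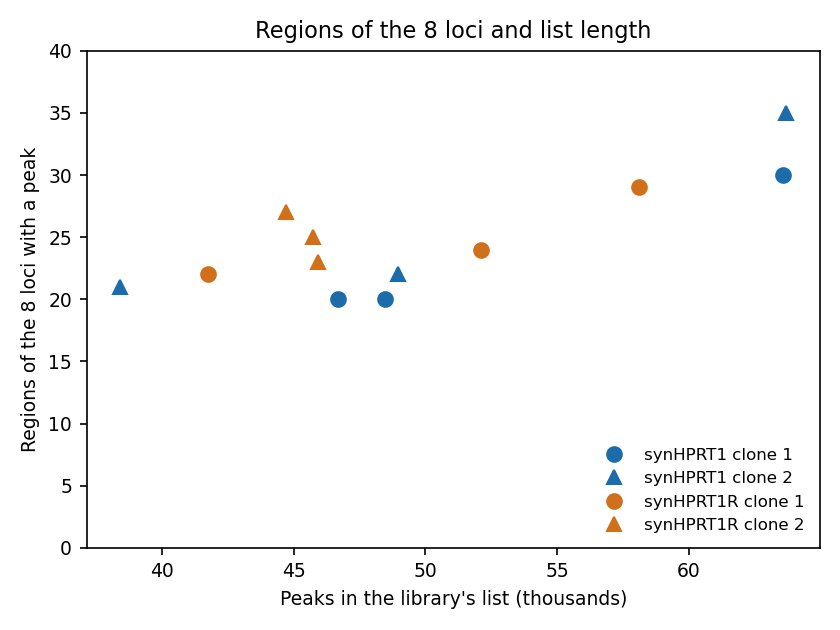
Each point is 1 library, with the number of peaks in its list on the horizontal axis and the number of regions of the 8 loci with a peak on the vertical axis. Colour gives the genotype and shape the clone. The 2 synHPRT1 libraries with the longest lists have 30 and 35 regions, and the other 10 have 20 to 29.

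Gene by gene, the peaks per window were compared in a test run over all 19577 protein-coding genes whose window held any peak. No gene passed an adjusted p of 0.05 (0%; exact permutation test, Benjamini-Hochberg adjusted). Before adjustment 266 genes had p under 0.05, 242 of them with more peaks in synHPRT1 and 24 with fewer. With lists cut to equal length the split was 182 against 131. At the smallest p the design allows, 0.00216, a call would have needed 848 genes at that value. None of the 8 members was among the 266, and their exact permutation p ran from 0.167 to 1 (adjusted p = 1). The largest difference was at Gbx2, with 3.33 ± 1.03 peaks (SD) in the 6 synHPRT1 libraries and 4.50 ± 1.22 in the 6 libraries of synHPRT1R (exact permutation p = 0.167). The mean was higher in synHPRT1 at 5 members and in synHPRT1R at 3, beside 56.3% of all genes higher in synHPRT1. With lists of equal length it was higher in synHPRT1 at 1 member and in synHPRT1R at 4, beside 40.2% of all genes.

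Region by region, 74604 regions of the genome listed in 1 to 11 libraries were tested, and none passed (0%; Fisher's exact test with adjustment over all of them, 164 at an unadjusted p under 0.05). The 8 loci held 37 of the tested regions. None had an unadjusted p under 0.05, 16 were more frequent in synHPRT1, 15 in synHPRT1R and 6 equally frequent. Over all 74604 regions tested, 37516 (50.3%) were more frequent in synHPRT1 and 24699 in synHPRT1R.

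Within a genotype, no region of the 8 loci was listed in all 3 libraries of one clone and in none of the other. In synHPRT1, where 44 regions of the 8 loci had a peak, the genome-wide share of such regions was 0.359% for clone 1 alone and 0.213% for clone 2 alone. In synHPRT1R, with 37 regions of the 8 loci, the shares were 0.768% and 0.196%. At these shares a count of 0 among so few regions is near the background.

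The wider pathway was described with 44 other genes of known role, by the same start measure, or by gene ends where no start is tabulated. Of these, 28 were listed in all 12 libraries, 13 in some and 3 in none, beside 49.6% of all protein-coding genes. Among 6 ligand genes, Il11 and Ctf1 were listed in all 12 and Il6 and Cntf in none. Among 4 other receptor genes Il6ra was listed in all 12, and Cntfr, the specific receptor chain for ciliary neurotrophic factor, in none. Among kinases, Jak2 and Tyk2 were listed in all 12 and Jak3 in 5. Among other STAT genes, Stat2 and Stat4 were listed in all 12 and Stat5a in 3.

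Inhibitors and phosphatases were listed most often, in all 12 libraries for 11 of 13 genes. These included Socs1, Socs2 and Cish, which are feedback inhibitors like Socs3, and the phosphatase gene Ptpn11. Ptpn6 was listed in 11 libraries and Socs7 in 7. Of 12 other target genes 9 were listed in all 12, among them Klf4, Tfcp2l1 and Myc, transcription factor genes of the stem cell network, and Mcl1, a survival gene. Sall4 was listed in 11, Bcl3 in 9 and Junb in 3. Socs2, Socs7, Myc and Sall4 have no tabulated start, so their listing means a peak near either gene end. None of the 44 genes passed the test of peaks per window. Bcl2l1, a survival gene singled out after its values were seen, had an unadjusted p under 0.05, with a mean of 8.17 peaks in the synHPRT1 libraries against 5.83 in those of synHPRT1R (exact permutation p = 0.00866, adjusted p = 1).

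For each member, the genes whose strongest-peak ranks were most like its own over the 12 libraries were found by the mean absolute difference in rank. Each is the closest of 16277 to 16280 genes compared, so a small difference is built into the search and is a description only. The ranks of Stat3 and Jak1 also varied least over the libraries, with SDs of 2.42 and 1.59, against 4.97 to 15.9 for the other members. Stat3 was closest to Gm3604 (0.644) and Jak1 to Anapc15 and Tomt (0.893 each). Lifr was closest to Satb1 (4.89), Il6st to Atad3a (4.55) and Socs3 to Sim1 (2.96). Lif was closest to Lrrc25 (7.18), Gbx2 to Trim8 (7.11) and Pim1 to Fzd5 (8.21).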

How the data were processed

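Peak lists of 12 ATAC-seq libraries were used, 1 per library, with peaks called per library. Per the submitters' processing notes, MACS2 2.1.0, Bowtie2 2.2.9, SAMtools 1.9, bcl2fastq 2.20 and deepTools 3.5.0 were used with the builds mm10 and GRCm38. The sources used here do not give their settings. The deposited lists follow the MACS2 layout. The deposited score was not used beyond checking its range. The deposited fold is a ratio of signal at the summit to background. The deposited −log10 p-values and −log10 q-values refer to that summit, with a lowest −log10 q of 1.30. The deposited summit offset, another column of the lists, gave the summit positions. No read counts were used.

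Peaks overlapping by at least 1 bp were merged over the libraries with Python 3.11.15, numpy 2.4.6, pandas 2.3.3 and scipy 1.17.1. Gene spans came from a RefSeq table of GRCm38.p6, and starts, strands and upstream sequences from RefSeq promoters of the same build. All 8 members matched, and exons and introns were not determined. Genotypes were compared over libraries with exact permutation tests over 924 splits, and regions with Fisher's exact test, adjusted by Benjamini-Hochberg over all genes or regions. The tests were checked on simulated data. The genes named were the 8 members, in each the start region, the highest-ranked region and any region separating the genotypes, of which there was none. The members and gene lists were chosen with earlier results of these data known. Genotype, clone and replicate were read from the sample labels. Some genes of the marker and pathway lists are not reported here by name.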

Additional observations from a re-analysis of the deposited data

Results flagged for a closer look

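In all, 5 values stood apart from the other 5 libraries of their genotype, out of 36 sets of 6 values examined, and chance gives about 1 in 20 for continuous values, a rate that does not hold for small whole counts with ties. The Lif window held 5 peaks in synHPRT1R clone 2 replicate 1 and 4 in each of the other 5 synHPRT1R libraries. The Socs3 window held 7 peaks in synHPRT1 clone 2 replicate 1 and 7 in synHPRT1R clone 1 replicate 1, where the others of each genotype had 4 to 5. The Pim1 window held 4 peaks in synHPRT1 clone 2 replicate 1, against 1 to 2 in the others. The libraries with the high Socs3 and Pim1 counts had the longest list of their genotype, at 63704 and 58099 peaks, and the part of list length in these counts was not tested. The Stat3 start region ranked 90.5 in synHPRT1R clone 2 replicate 2 and 97.2 to 99.6 in the other 5 synHPRT1R libraries.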

How the results depend on the processing

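The differences between genotypes in regions and bases of the 8 loci were small beside the spread, and their sign changed with several settings while no p fell under 0.05. The difference in regions (synHPRT1 minus synHPRT1R) was 0.5 without flanks and 1.33 with 50 kb flanks, and from −2.40 to 0.8 with each library left out in turn (exact permutation p from 0.268 to 1). The difference in bases was 197 without flanks, 508 with 50 kb flanks and 101 at a −log10 q of at least 5, and from −1288 to 767 with each library left out (p from 0.446 to 0.996). No gene window or region passed the adjusted threshold under any alternative run. The count of genes at an unadjusted p under 0.05 was 266, 132 without flanks and 758 without synHPRT1 clone 2 replicate 3, 549 without synHPRT1R clone 1 replicate 1 and 419 without synHPRT1R clone 1 replicate 2. Gbx2 had a difference of −1.50 peaks at an unadjusted p of 0.0455 with 10 kb flanks, and likewise without synHPRT1 clone 2 replicate 3. The Il6st and Gbx2 regions listed in 4 libraries of one genotype reached an unadjusted Fisher's exact p of 0.0152 (adjusted p = 1) in 2 leave-one-out settings each. Each of these settings left out a library of that same genotype that lacked the peak, so the lower p follows from the removal itself. At a −log10 q of at least 5, 1 region separated the clones of synHPRT1R, inside Lif at chr11:4266698-4267413, listed in 3 clone 1 and 0 clone 2 libraries. The median rank over the 8 leading regions was 61.8, 50.8 among lists cut to equal length, which removes the weaker peaks below them, and 71.5 when ranked by −log10 p or −log10 q. Ranked by these columns, the start region moved from 63.7 to 79.3 at Il6st and from 97.5 to 94.5 at Stat3, and that of Il6st stood at 53.8 among lists of equal length. TTCNNNGAA was found before 0 of the 10 member starts within 100 bases, against 2.27% of all starts. With the replicate number as a block (replicate block), the difference in regions stayed at −0.333 (exact permutation p = 0.954). Same-numbered libraries had a median correlation of deviations of −0.00348 (range −0.476 to 0.442). Different-numbered libraries had a median of −0.00718 (range −0.436 to 0.479), and 4 of 12 libraries were closest to their own number. Whether libraries of the same number shared a preparation was not tested. A site missing from a list was not detected at that library's depth, and its absence was not shown.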
